A study of Mus musculus with 8 samples.

Results

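The genes described here encode 6 metabotropic glutamate receptors, Grm2, Grm3, Grm4, Grm5, Grm7 and Grm8. They were matched by symbol, a rule with no threshold on a measured value, to the 54232 features of the count matrices, and each matched 1 feature. The list itself was drawn up with earlier results of these data known. Nuclei came from perilesional forebrain of male Swiss Webster mice aged 10 weeks, profiled by droplet single-nucleus RNA sequencing in 8 libraries, with 2 biological replicates in each of 4 surgery groups. Animals had a control surgery, the surgery labelled BCAS, a traumatic brain injury (TBI), or the last 2 combined (BCAS+TBI). The labels do not spell out BCAS, the study's title ties it to cerebral hypoperfusion, and no time between surgery and collection is given. They also do not say what the control surgery was, or how many mice gave each library.

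Metabotropic glutamate receptors are G protein-coupled receptors that respond to the glutamate released at synapses. Grm5 encodes mGluR5, a group I receptor that acts through Gq, phospholipase C and calcium release and sits mainly on the postsynaptic side. Grm2 and Grm3 encode the group II receptors, which couple to Gi/o and lower cyclic AMP; mGluR3 is known in glia as well as in neurons. Grm4, Grm7 and Grm8 encode group III receptors, also coupled to Gi/o, which are known as brakes on transmitter release at presynaptic terminals.

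The genes lie on separate loci of GRCm38 (GENCODE M21). Grm2 is at chromosome 9, 106643095 to 106656082 (minus strand), and Grm3 at chromosome 5, 9485541 to 9725170 (minus strand). Grm4 is at chromosome 17, 27422387 to 27521403 (minus strand), and Grm5 at chromosome 7, 87584168 to 88134907 (plus strand). Grm7, at 110645581 to 111567230 (plus strand), and Grm8, at 27275119 to 28135178 (minus strand), share chromosome 6. Their spans differ widely, with 13 kb for Grm2, 99 kb for Grm4, 240 kb for Grm3, 551 kb for Grm5, 860 kb for Grm8 and 922 kb for Grm7. Counts of nuclear RNA depend on gene length, so levels are compared between classes within a gene and not between genes. The span of Grm5 also overlaps 5 other genes of the same strand, counted apart with 15393 UMIs beside 488354 for Grm5.

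Nuclei were assigned to classes by marker genes, none of which is a member. Of 48468 nuclei kept, 31344 fell in a broad class and 17124 (35.3%) in none. Levels are in CPM, the gene's unique molecular identifiers (UMIs) divided by all UMIs of the class in 1 library and scaled as the unit's name says, given as mean ± SD over 8 libraries. Library totals ran from 28118725 to 56135192 UMIs over 6191 to 7882 barcodes, where the labels name a target of about 3000 captures. By total, the libraries split into set 1 (control 1, BCAS 1, TBI 1, BCAS+TBI 2) and the deeper set 2, each holding every surgery group once. Pairs of libraries shared 4 to 15 barcodes. Neuron markers were also counted in other nuclei. In astrocyte-like nuclei 9 general neuron markers stood at a median of 8.28% of their level in excitatory neuron-like nuclei. In mural-like nuclei the median was 16.7%. Whether this was RNA carried over from neurons was not tested. These markers also serve in the gate, which holds non-neuronal nuclei to at most 3 of them. The gate thus holds their level down there, and neuronal RNA of genes outside it may stand higher. The level of these markers is called background here, and a member at or below it is not read as expression. A level above it does not by itself show expression.

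**Figure D1:**
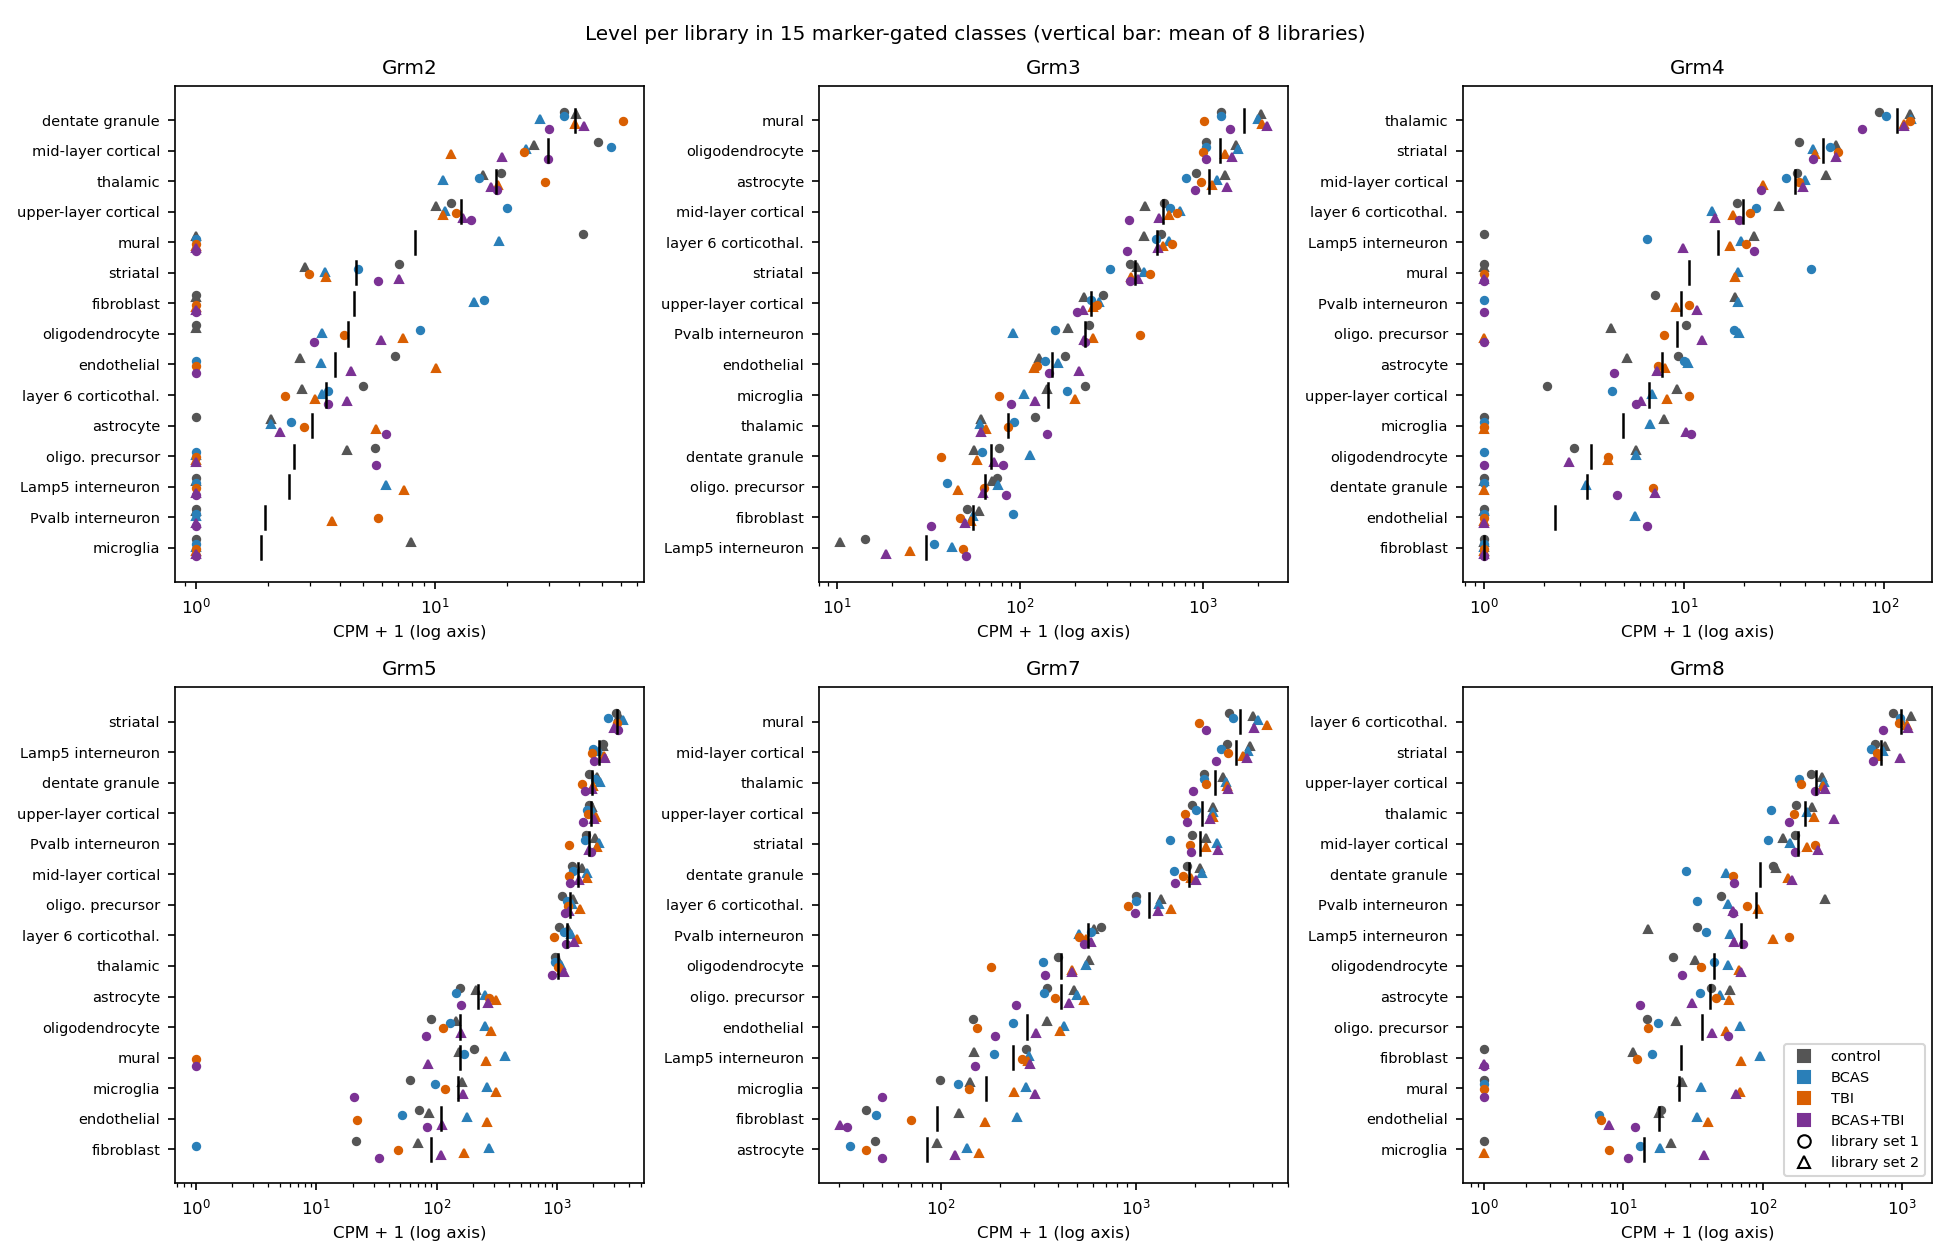
Level of each gene (CPM + 1, log axis) in 15 classes that share no nuclei, ordered by mean. Each point is 1 library, coloured by surgery group and shaped by library set, and the vertical bar is the mean of 8 libraries; Grm3 and Grm7 have mural-like nuclei at the top, Grm5 and Grm8 have striatal, layer 6 or other neurons there.

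Grm5, the Gq-coupled receptor, was highest in striatal projection neuron-like nuclei, at 3128 ± 249 CPM, with 2642 in the lowest library, a median of 3158 and 3511 in the highest. Lamp5 interneuron-like nuclei followed at 2249 ± 229 CPM, below striatal nuclei in 8 of 8 libraries (exact paired sign-flip permutation test, two-sided, adjusted p = 0.029 over 90 comparisons of all members, the smallest value such a test reached here). Dentate granule (1949 ± 222), upper-layer cortical (1897 ± 159) and Pvalb interneuron-like nuclei (1860 ± 306) followed, with no adjacent pair past the threshold. Hippocampal CA pyramidal neuron-like nuclei, 14 in all, were too few to be placed in this order. They held 157% of the excitatory level, beside 134% in Lamp5 interneuron-like nuclei. Inhibitory neuron-like nuclei as a whole held 1901 ± 140 CPM and excitatory ones 1675 ± 151, with the inhibitory class higher in 8 of 8 libraries (exact adjusted p = 0.029).

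The class outside neurons with the most Grm5 was the oligodendrocyte precursor-like one, dividing glia that receive synapses from neurons. Its level was 1089 and 1352 CPM in the control libraries, 1218 and 1334 with BCAS, 1226 and 1548 with TBI, and 1250 and 1157 with both. That mean of 1272 ± 141 CPM was 75.9% of the excitatory level, against a median of 11% (2.70% to 36.2%) for the neuron markers in the same nuclei. It lay below mid-layer cortical nuclei in 8 of 8 libraries (exact adjusted p = 0.029) and did not differ from layer 6 corticothalamic neuron-like nuclei at 1209 ± 171 CPM (exact adjusted p = 0.33). Oligodendrocyte-like nuclei, the mature form of that lineage, held 156 ± 73.9 CPM. Nuclei with at least 1000 UMIs were also thinned to that number and shallower ones left out, which kept 843 of 871 precursor-like, 1997 of 2597 oligodendrocyte-like and 16145 of 16167 excitatory nuclei. Of these, 65.1%, 10.9% and 72.3% had a Grm5 UMI. Before thinning, over all nuclei of each class, the shares were 82.8%, 17.4% and 96.8%, at median depths of 2268, 1424 and 6803 UMIs. Of the other classes whose thinned shares are given, 2707 of 2845 astrocyte-like, 465 of 650 microglia-like, 712 of 1209 endothelial-like, 116 of 311 mural-like and 251 of 252 choroid plexus-like nuclei reached this depth.

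Astrocyte-like nuclei held 220 ± 62.7 CPM of Grm5, 13.1% of the excitatory level, where single neuron markers ranged from 3.12% to 26.4%. At 1000 UMIs, 16.2% of them had a Grm5 UMI, close to the 14.4% of microglia-like and 14.9% of endothelial-like nuclei (27.9%, 17.2% and 18.3% before thinning, at median depths of 1971, 1212.5 and 1119 UMIs). Grm5 in astrocyte-like nuclei was therefore not told apart from background.

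Grm2, the group II receptor known as a presynaptic autoreceptor, was sparse, with 2888 UMIs in all nuclei. Its highest mean was in dentate granule neuron-like nuclei at 37.6 ± 10.3 CPM, with 33.8 and 38.2 CPM in control, 33.9 and 26.7 with BCAS, 60.2 and 37.7 with TBI, and 41.0 and 29.1 with both. Mid-layer cortical (28.7 ± 14.6), thalamic (17 ± 5.17) and upper-layer cortical nuclei (11.9 ± 3.18) came next. None of the 14 adjacent pairs in its order differed beyond the spread between libraries. Excitatory nuclei exceeded inhibitory ones, at 13.5 ± 2.14 against 2.86 ± 0.76 CPM, in 8 of 8 libraries (exact adjusted p = 0.029).

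Grm3, its group II partner, was led by non-neuronal classes. Mural-like nuclei, the pericytes and smooth muscle cells of vessels, held 1260 and 2093 CPM in control, 1262 and 1995 with BCAS, 1020 and 2108 with TBI, and 2235 and 1414 with both. The set 1 libraries, 1020 to 1414 CPM, all lay below the set 2 libraries, 1995 to 2235 CPM. Oligodendrocyte-like nuclei averaged 1246 ± 241 CPM and astrocyte-like nuclei 1074 ± 203 CPM. The order of these 3 classes held in 8 of 8 libraries at both steps (exact adjusted p = 0.029 for each), and astrocyte-like nuclei stood above mid-layer cortical nuclei (607 ± 120 CPM) in 8 of 8. With no limit on neuron markers these Grm3 means were 1126, 587 and 648 CPM in mural-, oligodendrocyte- and astrocyte-like nuclei, so that the last 2 changed order.

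The Grm3 levels of these glial and vascular classes were 408%, 473% and 635% of the excitatory level in astrocyte-, oligodendrocyte- and mural-like nuclei. Thinned to 1000 UMIs, 53.4%, 66.1% and 70.7% of their nuclei had a Grm3 UMI, beside 7.74% of microglia-like and 7.02% of endothelial-like nuclei. Before thinning the shares were 69.3%, 73.9% and 64.3%, beside 9.23% and 10.8%. In CPM, Grm3 in microglia- and endothelial-like nuclei stood at 53.7% and 56.7% of the excitatory level. The neuron markers there had medians of 14.3% and 10.1%, with highest single values of 22.6% and 85.7%. Whether Grm3 in these 2 classes was RNA carried over from other cells was not tested. Precursor-like nuclei held only 63.9 ± 15.1 CPM, about the level of dentate granule (68.8 ± 22.7) and fibroblast-like nuclei (54.4 ± 16.8), from neither of which they differed (exact adjusted p = 0.73 and 0.58). Along the oligodendrocyte lineage Grm5 was thus high in precursor-like and low in oligodendrocyte-like nuclei, and Grm3 the reverse; these non-adjacent classes were not tested against each other. Among neurons, layer 6 corticothalamic (563 ± 95.3 CPM) and striatal nuclei (423 ± 59.9 CPM) followed the mid-layer class, and among the neuron classes in the order Lamp5 interneuron-like nuclei were lowest at 29.6 ± 15.8 CPM.

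Grm4, a group III receptor, was highest in thalamic excitatory neuron-like nuclei, with 93.2 and 134 CPM in control, 102 and 134 with BCAS, 133 and 124 with TBI, and 124 and 75.9 with both. Their mean of 115 ± 22.1 CPM exceeded that of striatal nuclei, 48.6 ± 8.01 CPM, in 8 of 8 libraries, and mid-layer (34.7 ± 8.78) and layer 6 nuclei (18.6 ± 5.15) followed, each step in 8 of 8 (exact adjusted p = 0.029 for all 3). Dentate granule nuclei, by contrast, held 2.25 ± 2.71 CPM from 6 UMIs. Sst and Vip interneuron-like nuclei were too small for a test and were not placed in the order. They held 112% and 95.8% of the excitatory level, beside 67.3% in layer 6 nuclei. Their libraries ranged from 13.3 to 64.1 CPM (Sst) and from 0 to 63.3 CPM (Vip). In 458 fibroblast-like nuclei Grm4 had 0 UMIs, which allows up to 3.57 CPM by counting error.

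Grm7, the group III receptor known at the release site of many terminals, had its highest mean in mural-like nuclei. The mural level was 3008 and 3956 CPM in control, 3155 and 4218 with BCAS, 2108 and 4675 with TBI, and 4026 and 2284 with both. All set 2 libraries (3956 to 4675) lay above all set 1 libraries (2108 to 3155). Mid-layer cortical nuclei averaged 3248 ± 514 CPM, and this difference from the mural mean of 3429 ± 935 CPM was within the spread (exact adjusted p = 0.73). The mural value rests on 1115 UMIs in 311 nuclei with a median of 903 UMIs each. It was 164% of the excitatory level, against a median of 16.7% and a highest single value of 48.2% for the neuron markers there. At 1000 UMIs 85.3% of those deep enough had a Grm7 UMI, beside 20.9% of endothelial-like nuclei (80.1% and 24% before thinning). Pooled over libraries, the 284 mural-like nuclei with no Acta2 or Myh11 UMI (genes of contractile smooth muscle) held 3898 CPM, and the 27 with one held 2197 CPM.

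Below these classes Grm7 stood at 2532 ± 394 CPM in thalamic, 2181 ± 311 in upper-layer and 2131 ± 388 in striatal nuclei. The interneuron classes were not tested against each other. Pvalb interneuron-like nuclei held 569 ± 51.5 CPM, below layer 6 nuclei (1168 ± 223) in 8 of 8 libraries, and Lamp5 interneuron-like nuclei held 232 ± 61.0 CPM. In the Sst and Vip interneuron-like classes, too small for a test, the means were 1881 ± 321 and 1852 ± 295 CPM. Oligodendrocyte- and precursor-like nuclei held 413 ± 129 and 411 ± 99.9 CPM, or 19.7% and 19.6% of the excitatory level, within the range of single neuron markers there (4.03% to 35% and 2.70% to 36.2%). In astrocyte-like nuclei Grm7 stood at 83.7 ± 48.4 CPM, 3.99% of the excitatory level and under the median of the neuron markers.

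Grm8, the third group III receptor, was highest in layer 6 corticothalamic neuron-like nuclei, the cortical cells that project to the thalamus. Its level there was 867 and 1156 CPM in control, 961 and 978 with BCAS, 947 and 1079 with TBI, and 1112 and 727 with both. Striatal projection neuron-like nuclei followed at 705 ± 117 CPM against 978 ± 140 CPM, lower in 8 of 8 libraries (exact adjusted p = 0.029). Upper-layer (240 ± 39.5), thalamic (200 ± 63.8) and mid-layer nuclei (179 ± 48.3) came next among the ordered classes. Neither pair of those neighbours passed the threshold (exact adjusted p = 0.066 and 0.54). Vip interneuron-like nuclei, too small for a test, held 106 to 591 CPM per library. This was 98.3% of the excitatory level, beside 56.5% in upper-layer nuclei. Sst interneuron-like nuclei, also too small, held 66.6 to 484 CPM. Excitatory and inhibitory nuclei as a whole held 424 ± 78.9 and 391 ± 67.3 CPM and did not differ (exact adjusted p = 0.32).

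Within striatal nuclei, those with markers of the Drd1 pathway held more Grm8 than those with markers of the Drd2 pathway. The means were 821 ± 200 CPM in 199 nuclei and 582 ± 78.1 CPM in 281, a mean difference of 0.48 ± 0.36 (SD, n = 8 libraries) on the log2(CPM + 1) scale, higher in 8 of 8 libraries (exact p = 0.0078, adjusted p = 0.047 over the 6 genes). The other 5 genes did not differ between these nuclei (exact adjusted p of 0.39 to 0.79). This split was made after the levels had been seen. The Drd1 nuclei numbered only 11 in their smallest library, fewer than the tests across classes required. The adjusted p of 0.047 was thus not held to that minimum. The 173 striatal nuclei assigned to neither or both pathways were left out of the test and held 743 ± 214 CPM of Grm8.

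In oligodendrocyte precursor-like nuclei Grm8 was rare. It had 76 UMIs in 871 nuclei, or 13.8 and 23.1 CPM in control, 16.8 and 67.8 with BCAS, 13.9 and 53.3 with TBI, and 42.4 and 55.8 with both. The libraries held 3 to 19 Grm8 UMIs each, and the BCAS and control groups overlapped. The mean of 35.9 ± 21.6 CPM was 8.45% of the excitatory level, below the median of 11% for the neuron markers. Microglia-like and endothelial-like nuclei held 13 ± 12.2 and 17 ± 12.7 CPM of Grm8, at a summed level of neuron markers of 992 and 761 CPM beside 871 CPM in precursor-like nuclei. Oligodendrocyte- and astrocyte-like nuclei held 43.6 ± 18.4 and 40.8 ± 15 CPM. At 1000 UMIs 2.49% of precursor-like, 1.51% of microglia-like and 2.11% of endothelial-like nuclei had a Grm8 UMI (6.08%, 1.85% and 3.47% before thinning). Grm8 in precursor-like nuclei was thus not told apart from background at this depth. For BCAS against control the log2 fold change was 1.25 (SE 0.77, adjusted p = 1 by edgeR), and with the library set as a term 1.26 (SE 0.61, adjusted p = 1). Without BCAS 2 the first of these was -0.19.

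The level changed with the limit on neuron markers. With no limit the precursor-like class grew to 1539 nuclei and Grm8 to 267 ± 85.5 CPM, between 149 and 363 CPM per library, while the summed neuron markers rose from 871 to 6463 CPM. Pooled over libraries, Grm8 stood at 33.3 CPM in the 435 nuclei with 0 or 1 neuron marker, 40.6 CPM in 467 with 2 or 3, 253 CPM in 228 with 4 to 6 and 431 CPM in 409 with 7 to 9. Median depth rose along the same steps, from 1963 to 2579, 4091 and 10053 UMIs. Grm5 differed, with 1154 CPM in the first and 1742 CPM in the last of these sets of nuclei. The part of neuronal RNA or of mixed droplets in the added nuclei was not tested.

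**Figure D2:**
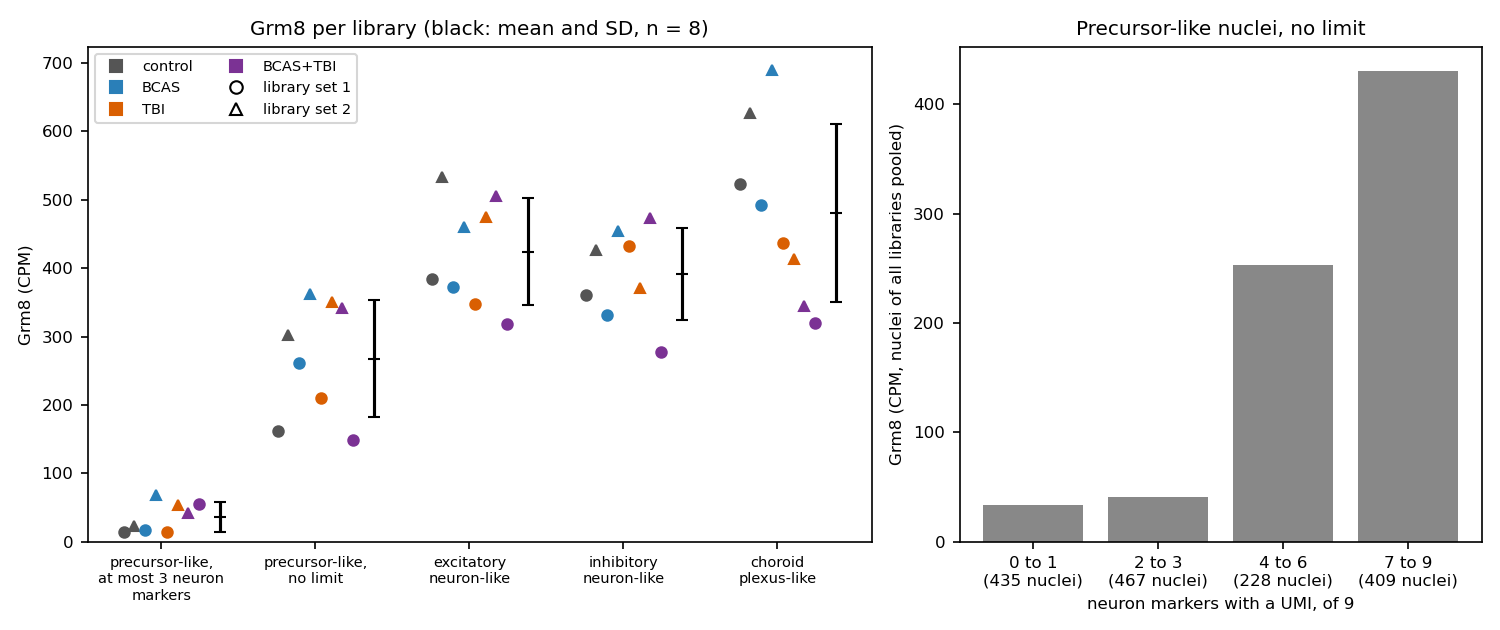
Left, Grm8 (CPM) per library in precursor-like nuclei under both gates, in neurons and in choroid plexus-like nuclei, with mean and SD in black. Right, Grm8 pooled over libraries in precursor-like nuclei by their number of neuron markers, from 33.3 CPM at 0 to 1 to 431 CPM at 7 to 9.

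Choroid plexus-like nuclei, the epithelium that makes cerebrospinal fluid, had the highest Grm8 of the non-neuronal classes. They numbered 252, with 18 in the smallest library, too few for the tests across classes. Grm8 averaged 481 ± 130 CPM, 113% of the excitatory level, where the neuron markers had a median of 8.11%. Single neuron markers ranged there from 0.962% to 119%, so the highest of them stood above the share of Grm8. At a depth of 1000 UMIs, 31.1% of choroid plexus-like nuclei had a Grm8 UMI, beside 27.3% of excitatory and 1.51% of microglia-like nuclei (54.8%, 55.9% and 1.85% before thinning). The other members were low there, from 0 UMIs of Grm4 to 84.9 ± 37.4 CPM of Grm7. By group Grm8 stood at 523 and 627 CPM in control, 492 and 690 with BCAS, 437 and 413 with TBI, and 344 and 319 with both. The 4 libraries with TBI (319 to 437 CPM) lay below the 4 without it (492 to 690 CPM). Of 2024 genes with at least 80 UMIs in this class, 2.37% had levels that did not overlap between these arms, and Grm8 was singled out after its values were seen. Between the arms with and without BCAS its levels overlapped, as for all but 1.73% of these genes. All 9 markers of the choroid plexus were detected in every library, with a summed level of 3812 to 4786 CPM without TBI and 3897 to 4846 CPM with it.

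By likeness of class means over 15 classes, among 12981 genes, the closest genes to Grm2 were Slc26a4 (Pearson r of 0.90) and Neurod1 (0.88), and to Grm3 Arap2 (0.85) and Tecr (0.79). Vwc2l (0.92) and Ano5 (0.90) were closest to Grm4, both with thalamic nuclei highest. Sgsm1 (0.98) and Fgf14 (0.97) were closest to Grm5, Stum (0.89) and Ajap1 (0.86) to Grm7, and Dram1 (0.93) and Rsph14 (0.93) to Grm8. The highest class of Ajap1 was mural, as for Grm7. These correlations describe 15 points that share libraries and depth.

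The surgery contrasts asked whether BCAS, TBI or both changed these genes within a class. The members gave 76 pairs of gene and class with enough counts, over 17 classes. With group as the only term, none of them passed an adjusted p of 0.05 in any of 7 contrasts (edgeR quasi-likelihood, Benjamini-Hochberg over all 146466 pairs), and 0.0% of all pairs did. DESeq2 called none either. At an unadjusted p under 0.05 stood 1 member pair for TBI, 4 for BCAS and 3 for both surgeries against control, beside 0.689%, 0.835% and 0.772% of all pairs. There were 3 for BCAS+TBI against TBI (0.747%), 3 for TBI averaged over BCAS (0.848%), 3 for BCAS averaged over TBI (0.717%) and 2 for the interaction (0.872%). With the library set as a further term, 1 member pair passed for TBI against control (0.0191% of all pairs), and 1 for TBI averaged over BCAS (0.0287%); both were Grm8 in Lamp5 interneuron-like nuclei. None passed for BCAS against control (0.0225% of all pairs), BCAS+TBI against control (0.0102%) or against TBI (0.0137%), BCAS averaged over TBI (0.00956%) or the interaction (0.0143%). At an unadjusted p under 0.05 in that fit were 12, 12 and 10 member pairs for TBI, BCAS and both against control, beside 3.75%, 4.09% and 3.81% of all pairs. The other contrasts had 13 (BCAS+TBI against TBI, 4.11%), 10 (TBI averaged, 4.29%), 6 (BCAS averaged, 3.58%) and 16 (interaction, 4.74%). In each contrast these were a larger share of the 76 member pairs than of all pairs. No share is given for genes with counts like those of the members. The broad neuron classes contain the subtypes, so the member pairs are not separate, and they were not tested as a set. Over the members the median log2 fold change was 0.06 for TBI, 0.03 for BCAS and -0.04 for both against control in that fit, beside a median of 0.00 over all pairs in each.

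**Figure D3:**
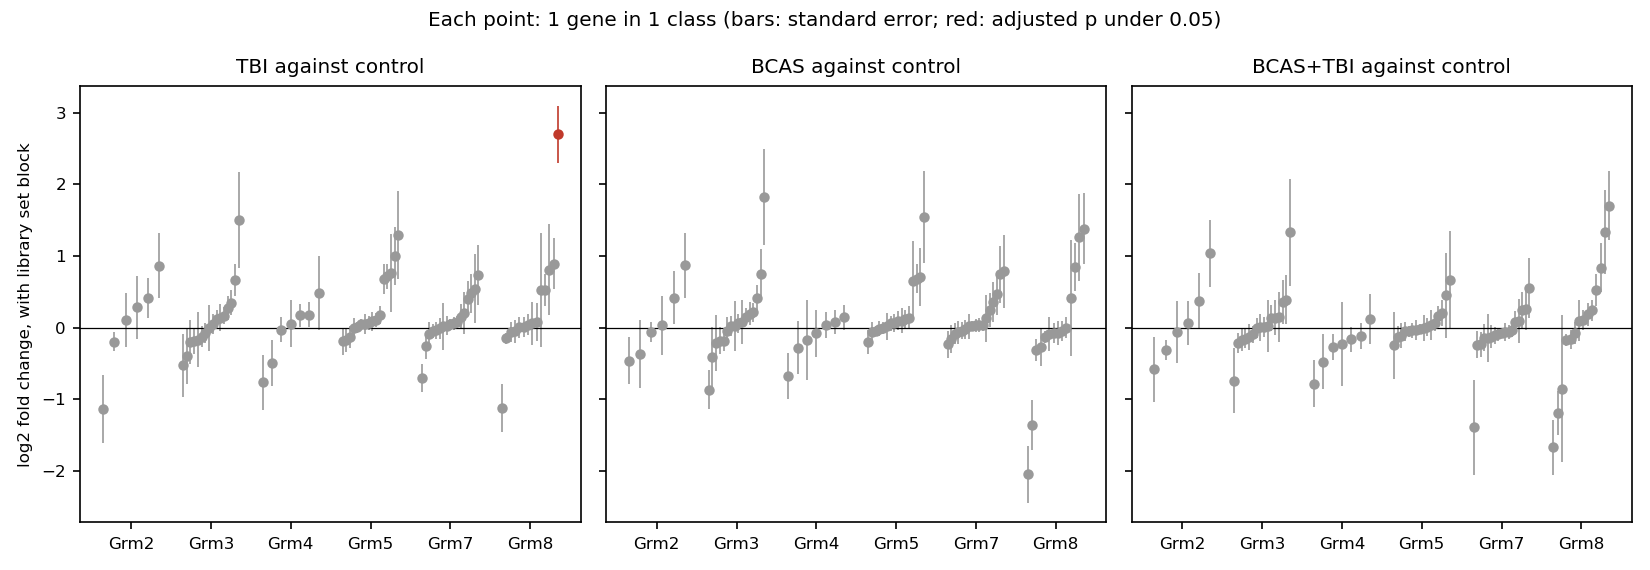
Log2 fold change against control, with the library set as a term, for the 76 pairs of member and class. Points are pairs sorted within each gene, bars are standard errors, and the 1 red point past the threshold is Grm8 in Lamp5 interneuron-like nuclei after TBI, at 2.70.

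Grm8 in Lamp5 interneuron-like nuclei stood at 33.1 and 14.1 CPM in control, 38.5 and 57.5 with BCAS, 154 and 119 with TBI, and 61.7 and 70.9 with both. Both TBI libraries lay above all others, and the 4 libraries with TBI (61.7 to 154) did not overlap the 4 without (14.1 to 57.5). The log2 fold change for TBI against control was 2.70 (SE 0.40, edgeR adjusted p = 0.0017) with the set term and 2.69 (SE 0.46, unadjusted p = 4.3e-05, adjusted p = 1) without it. Without a filter on low counts or a set term it was 2.72 (edgeR adjusted p = 0.013, where 0.00741% of all pairs passed). For TBI averaged over BCAS it was 1.51 (SE 0.29, edgeR adjusted p = 0.034) with the set term. The counts were small. There were 177 Grm8 UMIs in 365 nuclei, 5 and 6 of them in control and 32 and 74 in TBI, and 3 of 32 and 4 of 51 control nuclei held one, against 8 of 36 and 17 of 86 TBI nuclei. A single nucleus carried 46.9% of the UMIs in TBI 1 and 25.7% in TBI 2. Without the top nucleus of each library, Grm8 stood at 14.0 and 9.58 CPM in control, 11.6 and 45.4 with BCAS, 85.2 and 89.3 with TBI, and 42.3 and 22.7 with both. Both TBI libraries were then still highest, but the 4 libraries with TBI (22.7 to 89.3) overlapped the 4 without (9.58 to 45.4).

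The call for TBI against control was lost with the set term when control 2 (log2 fold change 2.00, edgeR adjusted p = 0.48) or TBI 2 (2.88, adjusted p = 0.083) was left out, under DESeq2 (2.66, adjusted p = 0.52), and with no limit on markers of other classes (1.62, adjusted p = 0.068). Leaving out any of the other 6 libraries in turn kept it. The call for TBI averaged over BCAS was kept in only 2 of 8 such fits, those without BCAS 2 or control 1. In the Lamp5 interneuron class its own 7 markers summed to 3831 to 5024 CPM over the libraries, and markers of layer 6 nuclei, the class with most Grm8, to 60.5 to 241 CPM. Lamp5 markers were lowest in TBI 1. The part of other neurons in this result was not tested.

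**Figure D4:**
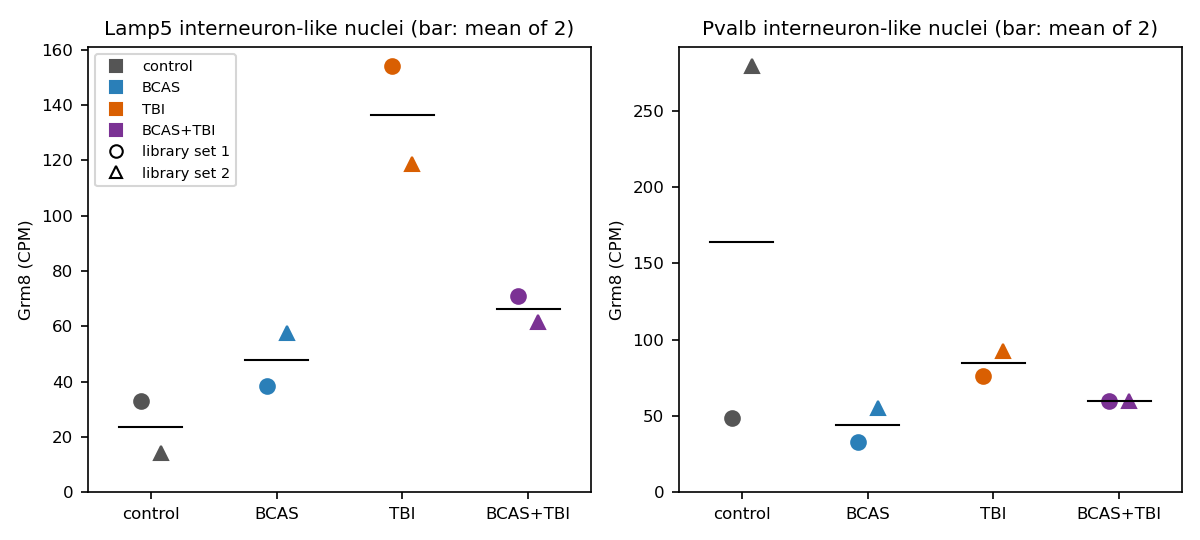
Grm8 (CPM) per library in Lamp5 and Pvalb interneuron-like nuclei, by surgery group and library set, with bars at the mean of 2 libraries. Both TBI libraries are highest in the Lamp5 class, while in the Pvalb class 1 control library stands at 279 CPM.

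Levels that did not overlap between the 4 libraries with and the 4 without TBI were seen in 3 of 73 member pairs with at least 80 UMIs (4.11%, beside 1.37% of all such pairs), all of them Grm8. This count covered 18 classes. It took in choroid plexus-like nuclei, whose smallest library held fewer nuclei than the surgery tests required. Grm8 in that class is among the 3 pairs and was singled out after its values were seen. The share of 4.11% therefore rests in part on a class left out of those tests. Besides the Lamp5 class, the neuronal pair was in mid-layer cortical nuclei, at 170.2 to 249.9 CPM with TBI and 107.6 to 169.8 CPM without. The nearest libraries were BCAS+TBI 2 (170.2 CPM from 59 UMIs) and control 1 (169.8 CPM from 43 UMIs). The gap between them was smaller than the value of a single UMI in either. For TBI averaged over BCAS the log2 difference in this class was 0.57 (SE 0.16, edgeR adjusted p = 0.69 with the set term). For BCAS none of the 73 pairs separated, beside 1.27% of all pairs.

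Grm8 in Pvalb interneuron-like nuclei rested on 1 library. It stood at 48.9 and 279 CPM in control, 32.7 and 55.6 with BCAS, 76.5 and 92.3 with TBI, and 60.1 and 60.1 with both, and 83 of the 165 UMIs of control 2 came from 1 nucleus. The log2 fold change for BCAS against control was -2.05 (SE 0.39, edgeR adjusted p = 0.099 with the set term) and -0.23 without control 2. It passed in 6 of 8 fits that left out 1 library, all of which held control 2. Grm5 in astrocyte-like nuclei was 154 and 210 CPM in control and 272 and 308 CPM with TBI. Its log2 fold change of 0.72 (SE 0.17) with the set term did not pass (edgeR adjusted p = 0.47).

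The library sets differed more than the surgery groups. Set 2 against set 1, in the same fit, changed 43 of the 76 member pairs, 40 higher and 3 lower, beside 32.3% of all pairs (14.3% higher and 18% lower). Grm7 was higher in set 2 in 14 of 17 classes, Grm5 in 11 of 16, Grm8 in 9 of 14, Grm4 in 3 of 7 and Grm3 in 3 of 16. In excitatory nuclei Grm7 stood at 1808 ± 87.5 CPM in set 1 and 2385 ± 55.1 in set 2 (SD, n = 4 each), a log2 fold change of 0.58 (SE 0.05, edgeR adjusted p = 2.2e-06). The 3 lower pairs were Grm3 in thalamic (-0.68) and Pvalb interneuron-like nuclei (-0.53) and Grm2 in mid-layer nuclei (-0.92).

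These shifts moved with gene span across all genes. In excitatory nuclei, 84.4% of the 237 tested genes spanning at least 500 kb were higher in set 2, with a median log2 fold change of 0.50 (quartiles 0.37 and 0.56), and Grm5 (0.41), Grm8 (0.65) and Grm7 (0.58) all span more than that. Grm8 and Grm7 lay above that upper quartile. Of 2451 genes of 100 to 500 kb, the range of Grm3 (0.31), 64.9% were higher (quartiles 0.16 and 0.52). Of 7090 genes of 20 to 100 kb, 30.7% were higher, with a median of 0.12 (quartiles -0.20 and 0.33). Grm4, at 99 kb near the upper edge of that range, lay above its upper quartile at 0.52 (SE 0.13, edgeR adjusted p = 0.0074). Of 10264 shorter genes, the range of Grm2 (-0.16), 11.1% were higher and 42.2% lower. Mitochondrial UMIs made up 1.2% to 2.77% of set 1 libraries and 0.511% to 1.04% of set 2 libraries. The part of depth or nuclear RNA quality in these shifts was not tested. Scaled by library totals alone, 14244 of all pairs were higher and 31163 lower, and 36 member pairs were higher and 5 lower.

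**Figure D5:**
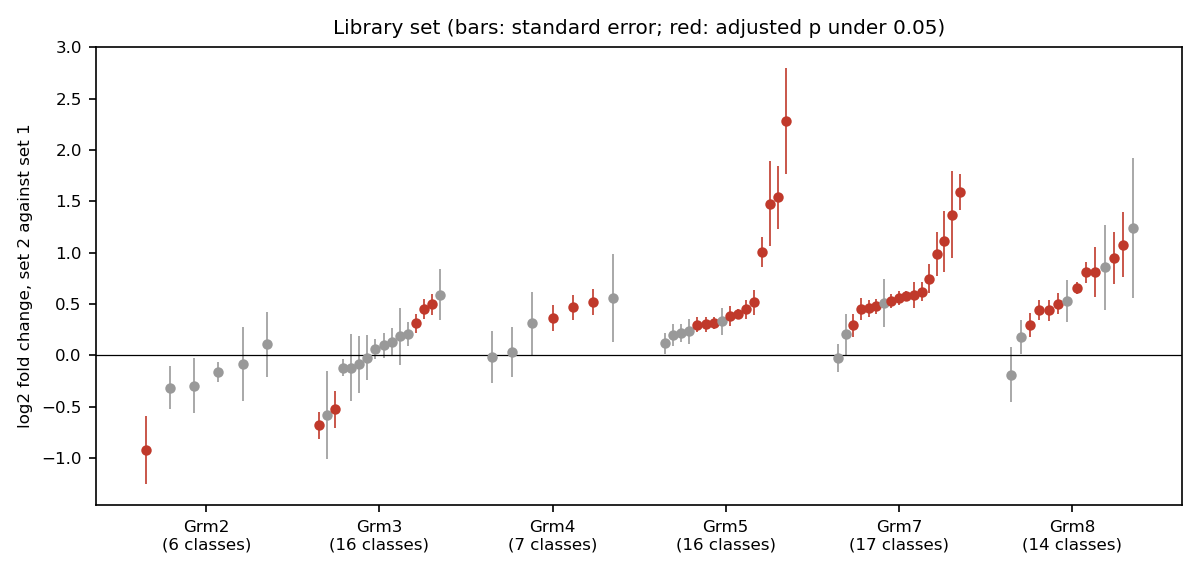
Log2 fold change of set 2 against set 1 for every tested class of each gene, with standard errors. Red points pass an adjusted p of 0.05; Grm5, Grm7 and Grm8 lie mostly above 0, Grm2 and Grm3 on both sides.

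Other genes of glutamate signalling, 29 in all, gave 359 pairs. None passed in any surgery contrast with group as the only term, where 3 to 10 pairs per contrast had an unadjusted p under 0.05 (edgeR). With the set term none of the 178 pairs of G proteins and effectors, 116 of scaffolds and partners or 21 of vesicular transporters passed, and 1 of 44 pairs of uptake transporters did. This was Slc1a3, the astrocyte glutamate transporter, in microglia-like nuclei for the interaction of the surgeries (log2 change of 3.01, SE 0.57, edgeR adjusted p = 0.041; 0.0143% of all pairs passed). Its level was 1752 CPM in the first control library and 1911 CPM in the second with both surgeries, beside 241 to 363 CPM in the remaining 6, and Slc1a3 is itself an astrocyte marker of the gate. Between library sets, 112 of the 359 pairs were higher in set 2 and 13 lower, where 14.3% of all pairs were higher and 18% lower. Plcb1, the phospholipase downstream of mGluR5, was higher in 15 of 16 classes, and Homer1, which anchors the receptor, in 10 of 14. The scaffold gene Grip1 was higher in 14 of 16 and the G protein gene Gnaq in 12 of 17. The part of gene span in these counts was not tested. Slc17a7, the vesicular glutamate transporter of cortical excitatory neurons, was lower in 5 of 13 classes, and Rgs4, a regulator of G protein signalling, and Ncdn were lower in 3 of 11 each.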

How the data were processed

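Each library has a deposited matrix of raw UMI counts, which per the file headers came from Cell Ranger 7.0.0. The submitters' processing notes name GRCm38, mm10 and Seurat. The counting settings, the annotation and whether introns were counted are not given in the sources used here. A barcode counted as a nucleus from 500 UMIs and 300 genes on, if mitochondrial UMIs did not exceed 5% (4922 of 53390 barcodes removed). No doublet caller was run. Nuclei with more markers of 2 classes than the limits below allow were left unassigned, and those within the limits were kept. A non-neuronal nucleus needed 4 markers of its list, 2 more than of any other such list, and at most 3 of 9 neuron markers. A neuron needed 5 of 9 and at most 3 markers of any non-neuronal list. It also needed 3 times more excitatory than inhibitory transmitter UMIs or the reverse. Subtypes needed the larger part of their list, or an equal split of it, and 2 more markers than of others. These limits were set after marker detection had been seen. Names rest on markers only, hence "-like".

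Counts were summed per library and class. A class was fitted if none of the 8 libraries held under 20 of its nuclei, in edgeR 4.0.16 (R 4.3.3; two-sided quasi-likelihood test, TMM scaling, filterByExpr at a minimum count of 10), with group as the term and with library set added. Adjusted p-values are Benjamini-Hochberg over all pairs of class and gene in a contrast, at 0.05. Replicates are labelled biological. Class orders were compared by exact sign-flip permutation over 8 libraries on log2(CPM + 1), adjacent classes being picked from the same means; only 15 classes that share no nuclei entered, plus excitatory against inhibitory. Up to 3 counts were taken as compatible with 0. The fits were tested on simulated data. Alternatives included DESeq2 1.42.0. Named like genes were the 2 with the highest correlation, of at least 10 CPM in a class, without predicted genes and markers; other pathway genes are named where they passed or touch a member's result. The members and lists were chosen with earlier results of these data known. No further receptor gene of the family is reported here. Counting intervals cover counting error only.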

Additional observations from a re-analysis of the deposited data

How the results depend on the processing

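With group as the only term, 0 pairs of class and gene passed over the 7 contrasts, of members and of all genes. All genes gave 0 too with RLE normalization, a minimum count of 30, DESeq2, adjustment within class and 4 other gates, and 0 to 5 when 1 library was left out. The count rose to 334 with no filter on low counts, and with the library set term to 173, to 176 with RLE, 194 with library totals only, 121 with no limit on other classes, 114 without high-UMI nuclei, 43 under DESeq2, and, with 1 library left out, 434 (BCAS 1), 324 (BCAS 2), 519 (TBI 1), 363 (TBI 2), 705 (BCAS+TBI 1), 396 (BCAS+TBI 2), 925 (control 1) and 529 (control 2). Members gave 1 pair with no filter on low counts. With the set term they gave 2, also without high-UMI nuclei and under both other scalings, and 5, 2, 4, 1, 3, 5, 7 and 0 with the same libraries left out in that order. They gave 0 with the set term under DESeq2 or with no limit on other classes. The cause was not tested. The set contrast fell to 26044 pairs under DESeq2 from 47356. Of 90 comparisons of class levels 30 differed, and 46 with no limit on other classes. With any 1 library left out 0 differed, where the smallest p that the exact test can give is larger than with 8 libraries. Grm8 for BCAS against control in precursor-like nuclei was -0.19 without BCAS 2 and 1.85 at most. Alternatives that join the set term to another change were added after seeing the data. Replicate numbers did not pair the samples: differences between replicates correlated at 0.87 to 0.88 among control, BCAS and TBI and at -0.88 to -0.91 with BCAS+TBI, and the fit with a replicate block called 0 pairs. Low counts limit Grm2, Grm4 and Grm8 in small classes.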
